A study of Homo sapiens with 2 samples.

Results

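The cardiomyocytes described here carried Hashtag4 or Hashtag10, 2 of 13 antibody-borne barcodes used to mark cells before pooling, and they are set against cardiomyocytes carrying Hashtag3, Hashtag5, Hashtag6, Hashtag8 or Hashtag9. A barcode counted as a cardiomyocyte when it had at least 500 genes, at least 1000 unique molecular identifiers (UMIs, counted RNA molecules), at most 25% mitochondrial UMIs, and at least 20000 CPM (UMIs scaled to the same total of 1e6 gene UMIs) summed over the contractile genes TNNT2, ACTN2, TTN, TNNC1, MYL4, MYL7 and MYBPC3. A cell was given a hashtag if that hashtag supplied 70% or more of its hashtag UMIs, of which it had to have 20 or more. Of 24038 barcodes in all, 1335 met these criteria for Hashtag4 (892 cells) or Hashtag10 (443 cells), and 3230 for the 5 comparison hashtags (555 for Hashtag3, 907 for Hashtag5, 796 for Hashtag6, 600 for Hashtag8 and 372 for Hashtag9).

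All cells shared the same origin as far as the labels say. They were made from H9, an established human embryonic stem cell line, carried the fluorescent calcium reporter gCaMP6f, were frozen as cardiomyocytes at day 15 of differentiation, and were thawed into medium with insulin, serum and a ROCK inhibitor. Each thawed preparation was stained with a hashtag antibody, and equal numbers of cells were pooled into 1 droplet capture, with 1 gene expression library and 1 hashtag library. No label says what treatment, line passage or differentiation a hashtag marks, so the hashtags are unlabelled samples, and the 2 sides were chosen from measured expression in these cells. Every value below is therefore a description with no test. The intervals in parentheses are exact 95% intervals for the counting of molecules or cells, and do not hold variation between preparations.

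Ventricular heart muscle forms as an outer compact wall and inner trabeculae. HEY2, a repressor in the Notch pathway, is known for marking the compact wall. The natriuretic peptide genes NPPA and NPPB mark trabecular and, for NPPA, atrial muscle. T-box factors such as TBX3 keep the pacemaker and atrioventricular canal muscle distinct from the working chambers. Early cardiomyocytes still divide, and as they mature they replace the slow skeletal troponin I (TNNI1) with cardiac troponin I (TNNI3) and the MYH6 myosin with MYH7 in the ventricle.

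Promoters of 3 called genes are shown as examples. NPPA was lower in Hashtag4 and Hashtag10, and TOP2A and ASPM are cell division genes that were higher. Each run is the 250 bases before the RefSeq start (GRCh38.p14), read 5′ to 3′ on the gene's own strand, which is the minus strand for all 3. They lie at chr1:11847784-11848033 for NPPA, chr17:40417897-40418146 for TOP2A and chr1:197146670-197146919 for ASPM. The gene spans given below are from another annotation, GENCODE 29, whose starts differ from those of RefSeq. By the GENCODE spans the NPPA run lies inside the gene, and the TOP2A and ASPM runs overlap the starts of theirs. Capitals mark matches on either strand to a GATA motif (AGATAA or AGATAG, or with T in the first place TGATAA or TGATAG) in NPPA, and to CCAAT and to the cell cycle homology element TTTGAA in TOP2A and ASPM.
NPPA: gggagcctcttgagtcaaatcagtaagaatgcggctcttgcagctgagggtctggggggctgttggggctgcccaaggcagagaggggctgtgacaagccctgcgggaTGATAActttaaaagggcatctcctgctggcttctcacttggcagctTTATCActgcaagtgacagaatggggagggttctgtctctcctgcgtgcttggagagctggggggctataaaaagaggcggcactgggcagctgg
TOP2A: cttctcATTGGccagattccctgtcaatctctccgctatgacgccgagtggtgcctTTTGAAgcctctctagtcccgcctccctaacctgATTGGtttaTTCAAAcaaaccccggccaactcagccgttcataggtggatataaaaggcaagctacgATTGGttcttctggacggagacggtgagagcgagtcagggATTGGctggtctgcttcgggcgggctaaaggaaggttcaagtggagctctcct
ASPM: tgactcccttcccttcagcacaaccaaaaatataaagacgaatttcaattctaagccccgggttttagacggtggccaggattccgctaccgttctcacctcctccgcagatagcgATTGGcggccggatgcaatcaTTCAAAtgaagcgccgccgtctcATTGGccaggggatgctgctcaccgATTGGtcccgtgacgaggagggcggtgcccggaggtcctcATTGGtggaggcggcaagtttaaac
The NPPA run held 2 GATA matches, and 22.4% of 34786 promoters of this length held at least 1. The TOP2A run held 4 CCAAT and 2 TTTGAA matches, and the ASPM run 4 and 1, where 32.0% and 13.3% of promoters held at least 1. The other motifs searched, on both strands, were a T-box motif (AGGTGTG, in 3.82% of promoters), an NKX2-5 motif (TNAAGTG, 8.73%) and a TEAD motif (CATTCC, 11.9%). The NPPA run held 0 matches to any of them, the TOP2A run 1 to the NKX2-5 motif, and the ASPM run 0 beside 1 GATA match left in lower case. No matches in these runs overlapped. A match is a string of letters and not a measured binding site.

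Of the genes proposed as markers of Hashtag4 and Hashtag10, HEY2 and GJA1 did not set these cells apart. HEY2 (chr6:125747664-125761269, plus strand) was at 205 CPM in Hashtag4 and 158 in Hashtag10, against 135, 173, 203, 172 and 195 CPM in Hashtags 3, 5, 6, 8 and 9. Hashtag4 was level with Hashtag6 at the top and Hashtag10 was below 4 of the 5 comparison hashtags, so the sides overlapped, and the ratio of side medians was 1.05. GJA1 (chr6:121435577-121449727, plus strand), which encodes the main gap junction protein of ventricular muscle, was at 56.9 CPM in Hashtag4 and 23.1 in Hashtag10. The comparison hashtags ran from 24.98 CPM in Hashtag8 to 56.9 in Hashtag9, so for GJA1 Hashtag4 matched the top of that range and Hashtag10 lay under its bottom.

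PDGFD (chr11:103907186-104164379, minus strand), a platelet-derived growth factor gene, was the only one of the 3 with both hashtags above the other 5. Its levels were 64.6 CPM in Hashtag4 and 72.5 in Hashtag10, against 43.2, 50.0, 52.0, 56.6 and 53.03 CPM in Hashtags 3, 5, 6, 8 and 9. The ratio of medians was 1.32, and the nearest pair, Hashtag4 over Hashtag8, was 1.14 apart (interval 1.02 to 1.28). Of the 6 hashtags on neither side, Hashtag7 (65.7 CPM) and Hashtag12 (79.7 CPM) were as high.

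Shares of cells did not set the sides apart for HEY2 or GJA1 either. After each cell was thinned to 3000 UMIs, with shallower cells left out (72 of Hashtag4, 22 of Hashtag10 and 21 to 93 of each comparison hashtag), a HEY2 UMI was present in 40.9% of Hashtag4 cells (37.5 to 44.3), 37.3% of Hashtag10 cells (32.7 to 42.1) and 26.2% to 40.2% of cells in the comparison hashtags. No order is read from the HEY2 share of Hashtag10, which lay above 4 of the 5 comparison hashtags while its CPM lay below 4. Without thinning the HEY2 shares were 74.1% and 82.8%, against 53.7% to 70.7%, at median depths of 14034 and 17642 UMIs against 11342 to 13189. Barcodes of the 7 hashtags under 10000 CPM of the contractile genes held HEY2 in 7.51% of 413 barcodes, at a median depth of 11787 UMIs. These barcodes are cells that can express such genes themselves, so their shares are not a measure of free RNA alone. For GJA1 those barcodes held it in 14.8%, above Hashtag4 (12.6%), Hashtag10 (4.99%) and the comparison hashtags (4.59% to 10.5%), so no GJA1 share here stands above that level. PDGFD was present in 17.9% of Hashtag4 cells (15.4 to 20.7) and 19.0% of Hashtag10 cells (15.4 to 23.1), against 9.94% to 14.8% in the comparison hashtags and 6.78% in those barcodes.

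**Figure D1:**
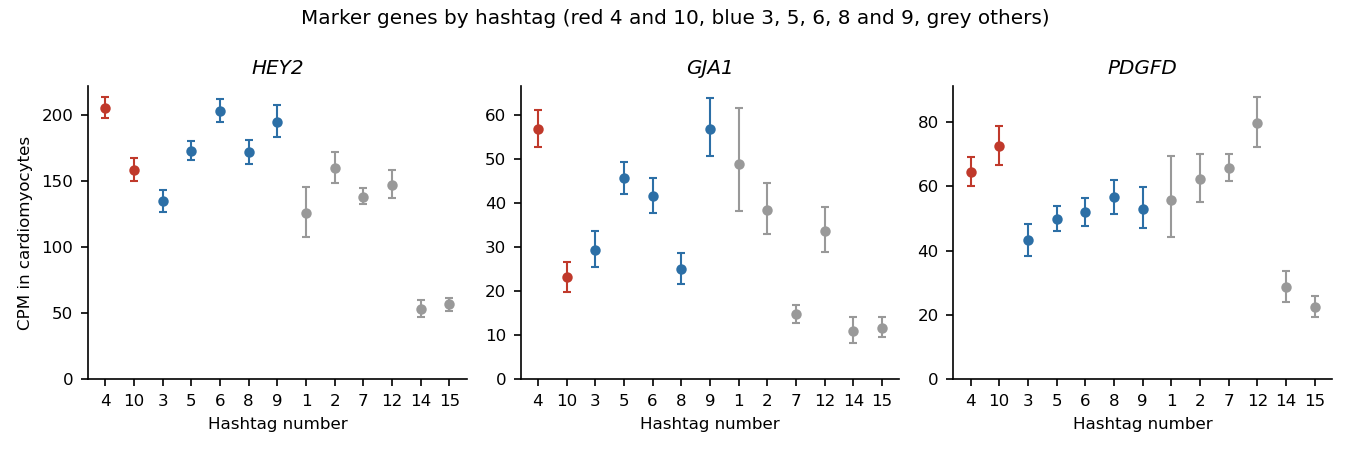
CPM of HEY2, GJA1 and PDGFD (vertical axes) in the cardiomyocytes of each of the 13 hashtags (horizontal axes), with exact 95% Poisson intervals that cover counting error only. For HEY2 and GJA1 the Hashtag4 point (red) is level with the highest blue point (Hashtags 3, 5, 6, 8 and 9) and the Hashtag10 point is lower, while both red points of PDGFD lie above the blue ones at 64.6 and 72.5 CPM.

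Hashtag10 differed from the comparison hashtags in many more genes than Hashtag4 did. Of 9007 measured genes, those with at least 10 CPM and 10 counts in at least 1 of the 7 hashtags, 11.3% differed by 1.5-fold or more between Hashtag4 and Hashtag10 themselves. Hashtag4 differed from the comparison hashtags in 1.04% (Hashtag5) to 5.58% (Hashtag9) of genes. Hashtag10 differed from them in 10.6% to 18.8%, and the comparison hashtags from one another in 3.13% to 11.0%, the highest being Hashtag3 with Hashtag6. Hashtag4 was thus nearer to each of the 5 comparison hashtags than to Hashtag10 by this count. The cardiomyocytes held 7916322 gene UMIs in Hashtag10, 12684982 in Hashtag4 and 5147862 to 12852510 in the comparison hashtags, with median mitochondrial shares of 3.51%, 2.87% and 1.80% to 2.99%. All came from 1 capture with no barcode in common, so library or sequencing run does not differ between the sides.

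A gene was called when both hashtags lay beyond all 5 of the others and the side medians differed by at least 1.5-fold. By this rule 57 genes (0.633% of those measured) were higher and 75 (0.833%) lower in Hashtag4 and Hashtag10, and the sides were chosen on these same data, so the counts are read for nothing more. With no size limit, 748 genes (8.3%) lay above and 334 (3.71%) below. The median ratio over all measured genes was 1.04. For Hashtag4 alone the rule gave 29 higher (0.329% of 8818) and 55 lower (0.624%), and for Hashtag10 alone 458 higher (5.1% of 8973) and 502 lower (5.59%). Leaving out Hashtag3 gave 94 higher genes and leaving out Hashtag6 gave 116 lower ones. Hashtag10 was the more extreme of the pair for 51 of the 57 higher and 74 of the 75 lower genes, and 10 and 37 of them respectively were also called for Hashtag4 alone.

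Most of these genes were not particular to Hashtag4 and Hashtag10 once the other 6 hashtags of the pool (1, 2, 7, 12, 14 and 15) were read. At least 1 of those 6 was as high as the nearer of the pair for 51 of the 57 higher genes, and as low for 60 of the 75 lower genes. The gap between the nearest hashtags of the sides was also narrow, with a median of 1.10-fold for higher and 1.12-fold for lower genes. Among the 34 called genes that are named by rule, the interval of the nearest pair lay above 1 for 11: NPPA, NPPB, TNNI3, TBX3, TGFB1, ADM, SOX4, IER3, TMSB4X and C12orf75 among lower genes and PPP1R10 among higher ones. For the remainder the nearest hashtags of the sides differed by less than counting error. A gap of at least 1.5-fold was found for 3 lower genes, CRHBP, ARRDC3 and RGS9, and for 0 higher ones; these 3 were picked after their values were seen. CRHBP, which encodes a binding protein for corticotropin-releasing hormone, was at 7.17 CPM in Hashtag4 and 1.64 in Hashtag10, against 19.3, 17.6, 41.8, 19.2 and 23.5 CPM in Hashtags 3, 5, 6, 8 and 9. ARRDC3, an arrestin-domain gene, was at 20.3 and 19.6 CPM against 34.3 to 56.7, and RGS9, a regulator of G protein signalling, at 3.86 and 1.26 CPM against 5.84 to 10.5.

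Both natriuretic peptide genes were called lower, NPPB by a wider ratio than NPPA. NPPA (chr1:11845709-11848345, minus strand), whose promoter is printed above, was at 325 CPM in Hashtag4 and 84.4 in Hashtag10. In Hashtags 3, 5, 6, 8 and 9 it was at 788, 498, 428, 512 and 701 CPM. Both hashtags lay below all 5, by a ratio of medians of 2.50, and Hashtag6 exceeded Hashtag4 by 1.32-fold (1.26 to 1.38). NPPB (chr1:11857464-11858931, minus strand), the neighbouring gene for B-type peptide, was at 421 CPM in Hashtag4 and 54.6 in Hashtag10, against 1814, 726, 513, 1394 and 1916 CPM. This ratio of medians, 5.86, was the largest of the 75 lower genes, although the step from Hashtag4 to Hashtag6 was 1.22-fold (1.17 to 1.27).

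Low levels of both genes were also found outside the pair. Hashtags 1, 2 and 7 held 286, 309 and 233 CPM of NPPA, under the level of Hashtag4. Hashtag12 held 124 CPM of NPPA and 98.2 CPM of NPPB, between Hashtag4 and Hashtag10, while Hashtags 14 and 15 held 1445 and 1589 CPM of NPPA. Both the share of positive cells and the number of molecules in them were low for NPPA. At 3000 UMIs per cell, NPPA was found in 23.3% of Hashtag4 cells (20.4 to 26.3) and 18.8% of Hashtag10 cells (15.1 to 22.8), against 27.1% to 41.1% in the comparison hashtags and 4.84% of the barcodes low in contractile genes. The NPPA-positive cells held on average 4.32 and 1.89 NPPA UMIs, against 5.42 to 8.32. Unthinned, the NPPA shares were 41.1% and 42.7%, against 47.4% to 63.1%.

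Of 6 measured trabecular genes these 2 were called lower and 0 higher, against 0.833% and 0.633% of all measured genes. The median ratio over the 6 was 0.875, with 2 over 1 and 4 under 1. IRX3, a homeobox gene of the trabecular conduction network, lay on the other side, at 26.6 and 32.7 CPM against 14.5 to 25.6. SLIT2 (36.2 and 98.2 CPM against 30.5 to 40.2) was called higher for Hashtag10 alone. CPNE5 (27.4 and 12.0 CPM against 23.9 to 32.8) was called lower for Hashtag10 alone. The receptor gene ERBB4, which takes part in trabecular growth, was at 104 and 81.1 CPM against 83.5 to 99.7. Of 12 measured compact wall and ventricular genes, 0 were called higher and HOPX, a homeodomain-only cofactor, was called lower, at 6.39 and 3.16 CPM against 7.81 to 19.8. The median ratio of that list was 1.04, the same as over all genes. IRX4, a ventricular homeobox gene, was at 116 and 120 CPM against 95.2 to 116, and FHL2, a LIM-domain protein gene, at 405 and 492 CPM against 282 to 399.

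**Figure D2:**
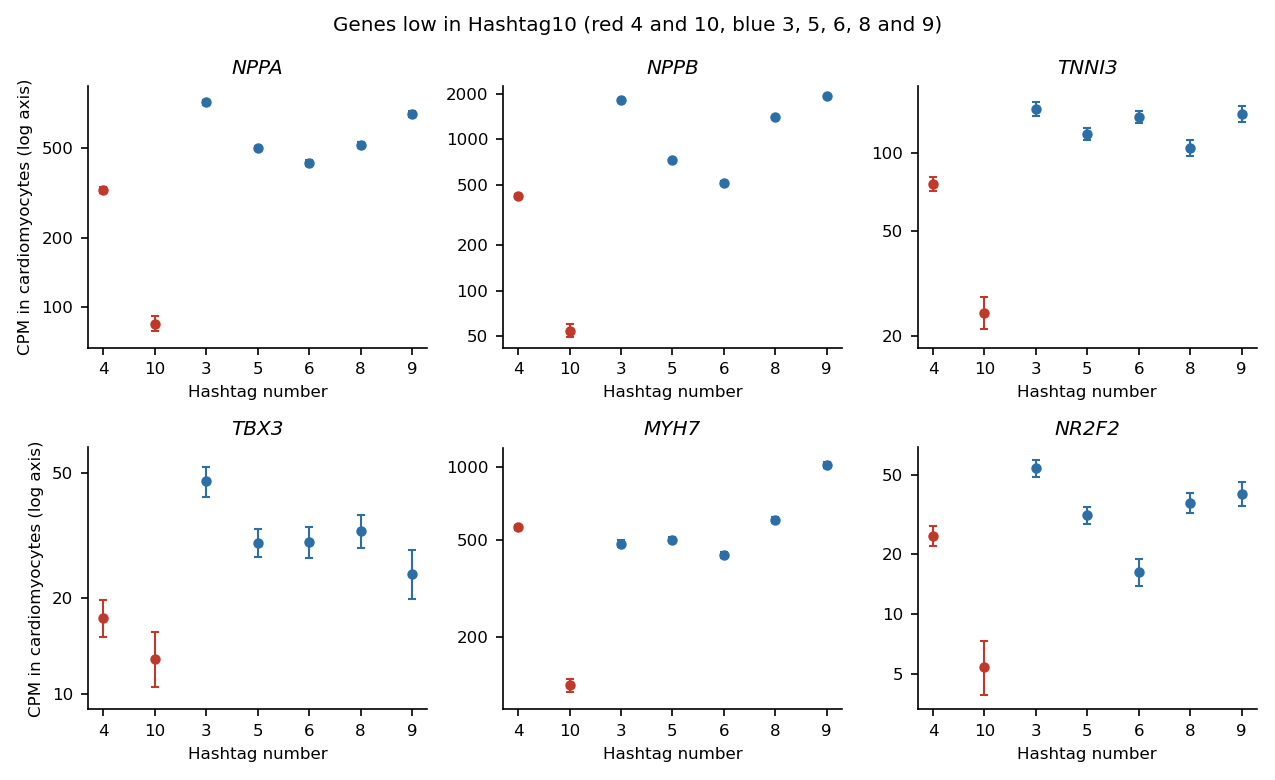
CPM (vertical axes, log scale) of 6 genes in the cardiomyocytes of Hashtags 4 and 10 (red) and 3, 5, 6, 8 and 9 (blue), with exact 95% Poisson intervals for counting error. NPPA, NPPB, TNNI3 and TBX3 are below all blue points in both red hashtags, whereas MYH7 and NR2F2 are below them in Hashtag10 only (126 and 5.43 CPM).

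Of 7 measured genes of the atrioventricular canal, 3 were called lower and 0 higher, against 0.833% and 0.633% of all measured genes. TBX3 (chr12:114670254-114684164, minus strand) was at 17.3 CPM in Hashtag4 and 12.9 in Hashtag10, against 47.0, 30.0, 30.1, 32.6 and 23.9 CPM in Hashtags 3, 5, 6, 8 and 9. The ratio of medians was 1.99, with Hashtag9 above Hashtag4 by 1.38-fold (1.10 to 1.73). All 7 had ratios under 1 (median 0.587), and the 3 called were TBX3, the WNT enhancer gene RSPO3 (10.6 and 3.41 CPM against 11.0 to 32.2) and the growth factor gene TGFB2 (13.2 and 8.72 CPM against 14.6 to 22.3). For RSPO3 and TGFB2 the nearest pair, Hashtag6 over Hashtag4, differed by less than counting error (0.801 to 1.34 and 0.880 to 1.38). BMP2, the ligand that induces this region, was at 24.8 and 17.3 CPM against 23.7 to 68.0, with Hashtag6 below Hashtag4. Outside the sides, TBX3 was at 14.2 CPM in Hashtag12 and 36.5 to 104 CPM in the other 5 hashtags, and RSPO3 was at 7.58 CPM in Hashtag1 and 17.8 to 46.5 in the other 5.

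For atrial genes Hashtag10 was lower than Hashtag4, and 0 were called for the pair. NR2F2, an atrial regulator, was at 24.8 CPM in Hashtag4 and 5.43 in Hashtag10, against 54.3, 31.4, 16.3, 36.2 and 40.2 CPM, so that Hashtag6 lay below Hashtag4. Of 5 measured atrial genes 4 were called lower in Hashtag10 alone, against 5.59% of all measured genes. The list median for the pair was 0.775. HCN4, the main pacemaker channel gene, was at 49.1 and 40.4 CPM against 55.8 to 93.9. Both lay below all 5 for HCN4, by 1.49-fold, just under the 1.5-fold limit. TBX3 was the 1 gene called of 5 measured pacemaker genes (median ratio 0.867), and that list summed to 119.5 and 98.2 CPM against 127.1 to 203.4. SHOX2 and the second heart field gene ISL1 were under 10 CPM in all 7 hashtags and were not measured.

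Cells with at least 1 UMI of NR2F1, NR2F2, SHOX2 or TBX3 after thinning to 3000 UMIs made up 10.5% of Hashtag4 cells (8.47 to 12.8) and 6.41% of Hashtag10 cells (4.27 to 9.19). The comparison hashtags had 12.6% to 25.2%, and the interval of the lowest, Hashtag6 (10.3 to 15.2), overlapped that of Hashtag4. Cells with none at that depth were then described by their full counts, in which such UMIs remain (TBX3 at 8.52 to 26.5 CPM over the 7 hashtags). In them 69 genes (0.769% of 8974) were called higher and 64 (0.713%) lower, of which 46 and 54 were among those called in all cells. NPPA, NPPB, TNNI3 and TBX3 were among the lower genes there too; TBX3 is itself used to choose those cells.

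In the sarcomere, cardiac troponin I was the clearest difference. TNNI3 (chr19:55151767-55157773, minus strand) was at 76.1 CPM in Hashtag4 and 24.5 in Hashtag10, against 147, 118, 137, 104 and 141 CPM in Hashtags 3, 5, 6, 8 and 9. Both lay below all 5, by 2.72-fold in medians and by 1.37-fold (1.25 to 1.51) from Hashtag8 to Hashtag4. At 3000 UMIs a TNNI3 UMI was seen in 15.7% of Hashtag4 cells (13.3 to 18.4) and 4.28% of Hashtag10 cells (2.55 to 6.67), against 20.2% to 26.0%. Unthinned, those TNNI3 shares were 37.0% and 20.1%, against 39.2% to 50.2%. Barcodes low in contractile genes, which are cells with expression of their own and not a measure of free RNA alone, held TNNI3 in 12.3% (9.33 to 15.9), above the Hashtag10 share. Outside the sides, TNNI3 was at 58.6, 64.7, 60.9 and 32.1 CPM in Hashtags 1, 2, 7 and 12, and at 170 and 140 CPM in Hashtags 14 and 15.

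Its fetal partner TNNI1 was level across the sides, at 5765 and 5865 CPM against 5328 to 6149. The median ratio of the 22 measured sarcomere genes outside the selection rule was 0.832. Of these 22, 3 were called lower and 0 higher, against 0.833% and 0.633% of all measured genes. The other 2 were TNNT1, slow skeletal troponin T (4.81 and 1.14 CPM against 4.92 to 13.5), and TAGLN, a smooth muscle actin-binding protein (249 and 240 CPM against 258 to 782). Their nearest pairs differed by 1.02-fold (0.669 to 1.55) and 1.04-fold (0.984 to 1.09), within counting error. Hashtag10 alone was called lower in 10 of the 22, against 5.59% of all measured genes.

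No measured myosin gene outside the selection rule was called for the pair. MYH7, the adult ventricular heavy chain, was at 565 CPM in Hashtag4 and 126 in Hashtag10, against 484, 502, 434, 607 and 1022 CPM. MYL2, the ventricular regulatory light chain, was at 18.5 and 5.94 CPM against 14.4 to 50.5. MYH6 was at 3288 and 4061 CPM against 3070 to 3834, and MYL3, the ventricular essential light chain, at 2903 and 4614 CPM against 2872 to 3802. Hashtag4 lay inside the comparison range for these 4 genes and Hashtag10 outside it. The other 2 of those myosin genes differed from this: MYL9, a smooth muscle light chain, was at 1306 and 1726 CPM against 1422 to 2009, and MYH7B at 35.1 and 14.3 CPM against 26.7 to 33.8. In the ion handling lists, 0 of 12 calcium handling, 0 of 8 depolarising channel and 0 of 5 potassium channel genes were called. Their median ratios were 1.01, 0.879 and 0.999. Over all measured genes 0.633% were called higher and 0.833% lower, so 0 calls in lists this short say little. For 2 of the 8 depolarising channel genes both hashtags lay below all 5 others, and for 2 above. Of 19 measured cardiac transcription factor genes 0 were called, with a median ratio of 1.00, TBX5 being at 66.6 and 45.5 CPM against 65.3 to 79.9 and HAND1 at 118 and 173 CPM against 128 to 156.

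Among the signalling genes of the lists, all calls were lower. Over all measured genes 0.833% were called lower and 0.633% higher. Of 17 measured BMP and TGF-β genes 2 were called, TGFB1 (16.003 and 9.60 CPM against 20.1 to 25.4) and TGFB2, and the list median was 0.7099. Of 10 measured WNT genes, 2 were called lower, RSPO3 and the receptor gene FZD7 (7.25 and 2.65 CPM against 7.72 to 13.5). In the Notch list, which holds HEY2, 0 of 6 measured genes were called. PDGFD belongs to a list of 13 measured PDGF, FGF and VEGF genes of which 0 were called, with a median ratio of 0.914. Lists for retinoic acid response (5 measured), connexins (3), adhesion (14) and oxidative metabolism (16) also had 0 calls, with median ratios of 0.897, 0.962, 1.06 and 1.04. FGF18, a growth factor gene outside the lists that was picked after its values were seen, was higher, at 53.5 and 45.9 CPM against 22.8, 36.6, 29.7, 23.4 and 25.3.

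Glycolytic and hypoxia-response genes were lower mainly in Hashtag10. Of 24 measured, 23 had ratios under 1 (median 0.747) but 1 was called, ADM, which encodes the vasodilator peptide adrenomedullin. ADM was at 27.0 and 9.98 CPM against 36.4, 38.2, 63.0, 52.5 and 34.97. Hashtag10 alone was called lower in 13 of the 24 and Hashtag4 in 0, against 5.59% and 0.624% of all measured genes. LDHA, lactate dehydrogenase A, was at 1023 CPM in Hashtag4 and 283 in Hashtag10, against 755 to 1442. The list summed to 14119 CPM in Hashtag4 and 10089 in Hashtag10, and to between 13266 (Hashtag3) and 17650 (Hashtag5) in the others, so Hashtag4 lay inside the comparison range.

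Cell division genes made up the largest listed group among the higher genes. Of 26 measured G2M-phase genes, all 26 had ratios above 1 (median 1.75), 9 were called higher and 0 lower. Over all measured genes 0.633% were called higher. TOP2A (chr17:40388516-40417950, minus strand), a topoisomerase of dividing chromosomes, was at 76.4 CPM in Hashtag4 and 140 in Hashtag10, against 76.1, 56.6, 47.0, 70.02 and 42.4 CPM in Hashtags 3, 5, 6, 8 and 9. Hashtag4 and Hashtag3 were level for TOP2A, 1.00 apart (0.903 to 1.12). ASPM, a spindle pole gene, was at 38.5 CPM in Hashtag4 and 64.2 in Hashtag10, against 36.0, 25.1, 21.0, 31.4 and 20.8. The spindle genes DLGAP5 (31.2 and 58.7 CPM against 16.9 to 31.2) and KIF11 (15.4 and 25.4 against 6.6 to 12.7) had the same order, Hashtag10 first.

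The G2M difference was mainly that of Hashtag10. All 26 genes were called higher for Hashtag10 alone and 1, ASPM, for Hashtag4 alone, against 5.1% and 0.329% of all measured genes. The proliferation marker MKI67 was at 27.9 CPM in Hashtag4, under the 30.2 CPM of Hashtag3, and at 50.4 CPM in Hashtag10. The list summed to 1107 CPM in Hashtag4 and 1891 in Hashtag10, against 1142, 934, 838, 1115 and 774 CPM. With every cell thinned to 3000 UMIs the sums were 875 and 1477 CPM, against 642 to 827, so by this sum Hashtag4 was also above the others. Cells with at least 3 G2M UMIs at that depth made up 12.9% of Hashtag4 (10.7 to 15.4), 28.5% of Hashtag10 (24.2 to 33.1) and 12.996% to 16.8% of the comparison hashtags. Unthinned, that G2M share was 54.4% in Hashtag4, 71.8% in Hashtag10 and 52.7% to 61.0% in the comparison hashtags. Hashtag4 was thus no higher than the comparison hashtags in this share, and among the other 6 hashtags the share ran from 11.1% to 22.3%.

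Of 18 measured S-phase genes, 0 were called for the pair (median ratio 1.19). For Hashtag10 alone 12 of the 18 were called higher, against 5.1% of all measured genes. The S-phase genes summed to 517 CPM in Hashtag4, below all 5 comparison hashtags (525 to 718), and to 948 CPM in Hashtag10. With every cell thinned to 3000 UMIs these sums were 449 and 808 CPM, against 477 to 621. Hashtag4 was thus below all 5 by its S-phase sum there, unlike its G2M sum. Cells with under 3 G2M UMIs after thinning to 3000 were also described by their full counts. In them 47 genes (0.528% of 8899) were called higher and 93 (1.05%) lower, of which 32 and 73 were among those called in all cells. NPPA, NPPB, TNNI3 and TBX3 were again among the lower genes. TOP2A, itself in the list that chose those cells, was on the other side of 1 there, with a log2 ratio of -0.10.

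**Figure D3:**
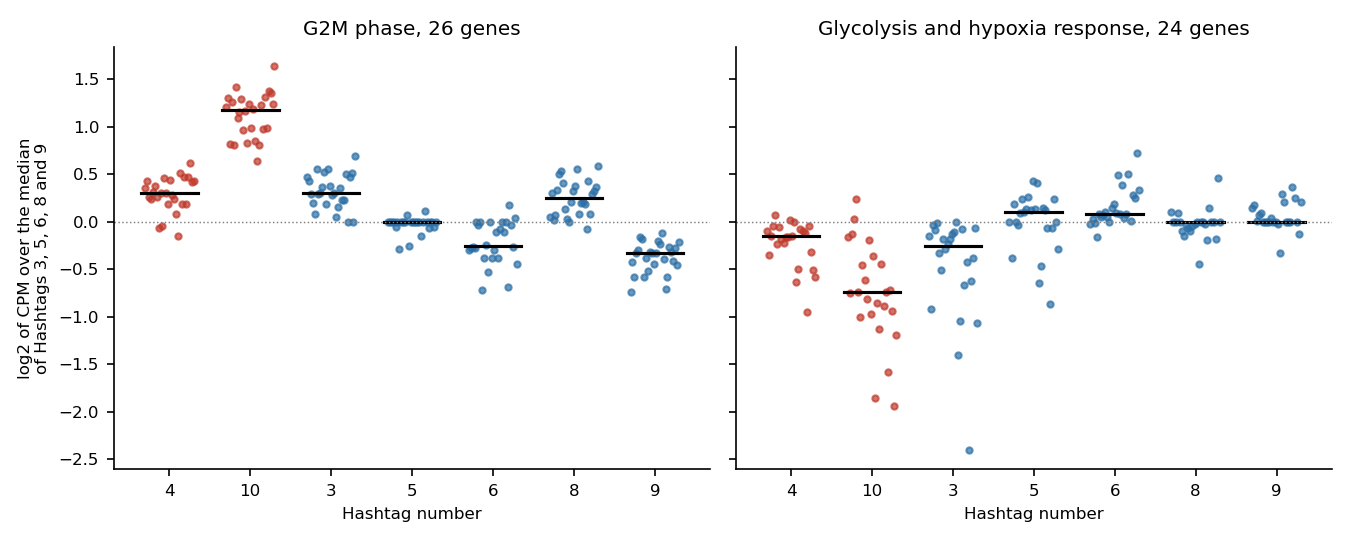
Level of each measured G2M-phase gene (left, 26 genes) and each measured glycolysis and hypoxia gene (right, 24 genes) in a hashtag, as log2 of its CPM over the median of Hashtags 3, 5, 6, 8 and 9 (vertical axis), with the list median as a black line. Hashtag10 lies highest for G2M genes and lowest by its median for glycolytic genes. Hashtag4 lies above all blue hashtags for 10 of the 26 G2M genes and not for the others.

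**Figure D4:**
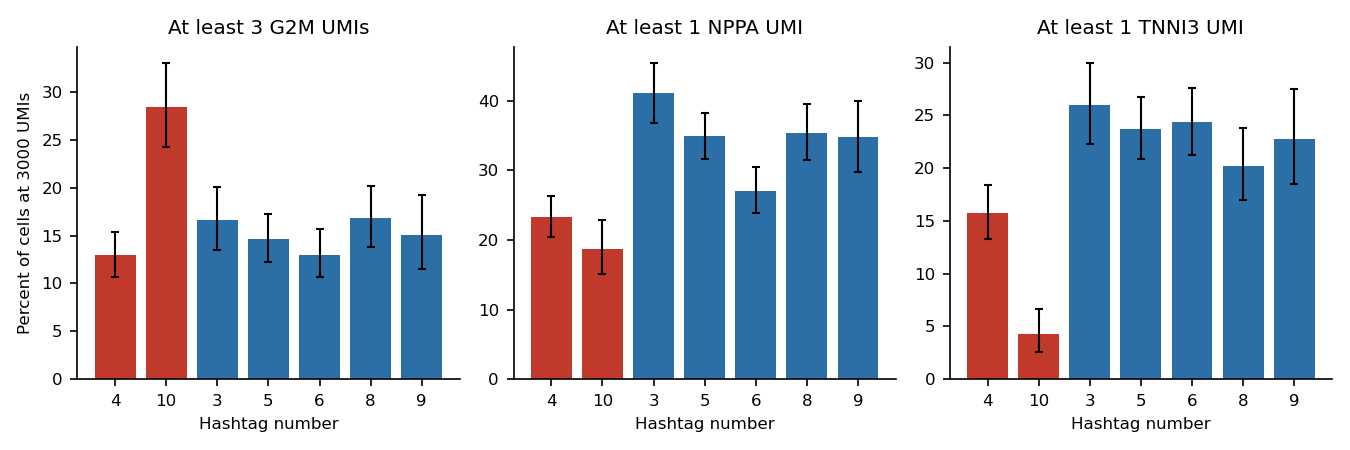
Percent of cells at 3000 UMIs per cell (vertical axis) with at least 3 G2M UMIs, at least 1 NPPA UMI or at least 1 TNNI3 UMI, for Hashtags 4 and 10 (red) and 3, 5, 6, 8 and 9 (blue), with exact 95% intervals for counting error. The G2M share is 12.9% in Hashtag4 and 28.5% in Hashtag10, while NPPA and TNNI3 shares are below all blue bars in both.

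The remaining higher genes were of mixed function. PHGDH and PSAT1 encode successive enzymes of serine synthesis. PHGDH was at 125 CPM in Hashtag4 and 86.8 in Hashtag10, against 65.7, 62.2, 68.4, 84.8 and 74.8 CPM, and here Hashtag4 led, with Hashtag10 1.02-fold over Hashtag8 (0.920 to 1.14). PSAT1, picked after its values were seen, was at 19.6 and 18.2 CPM against 11.3 to 15.9. Of 16 measured stress and immediate early genes, FOSB (68.6 and 114 CPM against 39.4 to 67.5) and EGR1 (29.3 and 42.4 CPM against 15.2 to 29.1), transcription factors induced within minutes of a stimulus or handling, were called higher and 0 lower, with a median ratio of 1.00 over the list. Their nearest pairs, Hashtag4 over Hashtag6, were 1.02 (0.919 to 1.12) and 1.01 (0.862 to 1.17) apart, within counting error. PPP1R10, a phosphatase 1 regulatory subunit gene, was at 62.2 and 77.3 CPM against 25.04 to 50.3, and 0 of the other 6 hashtags reached Hashtag4, the highest of them being 61.2 CPM. C15orf41 was at 85.3 and 75.5 CPM against 49.8 to 74.3. PLSCR5 had the largest ratio of the 57 higher genes, 4.20, which rested on Hashtag10: 4.81 CPM in Hashtag4 and 18.9 in Hashtag10, against 1.75 to 3.27.

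Outside the lists, the early response gene IER3 was lower, at 114 CPM in Hashtag4 and 36.8 in Hashtag10, against 196, 154, 137, 154 and 175 CPM in Hashtags 3, 5, 6, 8 and 9, and GADD45G, a growth arrest gene, was at 182 and 30.1 CPM against 183 to 272. RRAD, a small GTPase that restrains calcium channels, was at 175 and 41.6 CPM against 177 to 415. For GADD45G and RRAD, Hashtag4 was level with the lowest comparison hashtag, at 1.01-fold for each. SOX4 (108 and 86.7 CPM against 130 to 162), TMSB4X (88.5 and 72.9 against 103 to 176), C12orf75 (79.1 and 72.1 against 87.6 to 140), THBS1 (68.7 and 22.9 against 73.0 to 184) and TIMP1 (75.8 and 34.4 against 79.3 to 99.5) were also lower. The p53 target PHLDA3 was at 43.4 and 30.9 CPM against 48.2 to 72.1, the 1 call among 10 measured apoptosis and p53 genes (median ratio 0.819). CCND1, which encodes cyclin D1 and was picked after its values were seen, was at 28.0 and 5.18 CPM against 37.7 to 52.3, in contrast to the G2M genes.

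Some markers of other cell types were lower on the same side. The 8 stromal genes summed to 45.0 CPM in Hashtag4 and 42.1 in Hashtag10, against 48.8 to 84.6, with 1 of 3 measured called lower: the collagen gene COL3A1, at 11.3 and 10.6 CPM against 13.4 to 28.8. With a hashtag share of 90% required, COL3A1 turned to the higher side (log2 ratio 0.28). COL3A1 was also the 1 call among 16 measured matrix genes (median ratio 0.862). The 7 endoderm genes summed to 48.3 and 35.5 CPM against 51.7 to 100.1, with APOA1 called lower of 3 measured (39.6 and 27.5 CPM against 42.7 to 60.6). Endoglin, ENG, an endothelial and stromal surface protein, was at 28.4 and 9.09 CPM against 30.8 to 52.6, while the 7 endothelial genes summed to 3.78 and 3.54 CPM against 3.48 to 4.80. Epithelial genes summed to 1009 and 866 CPM against 1103 to 1326, nearly all of it from the keratin genes KRT8, KRT18 and KRT19, with EPCAM at 20.6 and 14.7 CPM against 19.7 to 30.9. Epicardial genes summed to 20.9 and 5.68 against 14.0 to 19.0, pluripotency genes to 9.70 and 20.1 against 8.72 to 13.8, and neural genes to 2.76 and 7.07 against 1.69 to 6.07. Cardiomyocytes made up 88.4% of the tagged cells of Hashtag4 and 84.4% of Hashtag10, against 71.9% to 83.9%. The part of such RNA in the differences above was not tested.

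At the edges of the selection the natriuretic difference took different sizes. Cells just inside the contractile gene threshold, at 20000 to 22000 CPM, numbered 68 in the pair and 206 in the comparison hashtags and held 37.8 and 98.7 CPM of NPPA. Those just outside, at 18000 to 20000 CPM, numbered 34 and 182 and held 66.4 and 67.9 CPM of NPPA, so the sides were alike there. For the hashtag share, cells at 70% to 75% held 154 and 389 CPM of NPPA (223 and 569 cells) and cells at 65% to 70%, outside the rule, held 160 and 315 CPM (238 and 619 cells). TNNI3 was lower on the pair's side in all 4 of these bands, at 36.8 to 55.0 CPM against 85.1 to 125.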

How the data were processed

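RNA and hashtag molecules were measured in 1 pool, and the authors deposited it as a single table of UMI counts, not normalized, made with Cell Ranger 4.0.0 per the file headers and with build hg38 per the submitters' processing notes. How barcodes were called as cells is not given in the sources used here. Barcodes were kept with at least 500 genes, 1000 gene UMIs and at most 25% mitochondrial UMIs, which left 21623 of 24038, and 10319 of these (47.7%) were given a hashtag. Scrublet in scanpy 1.11.5 marked 989 as doublets (4.57%, against 19.2% expected), including 27 of the Hashtag4 and Hashtag10 cardiomyocytes and 99 of the comparison cardiomyocytes. They were kept in the values given and left out in an alternative.

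UMIs were summed over the cardiomyocytes of each hashtag and divided by their total (CPM). Ratios are between the median of Hashtag4 and Hashtag10 and the median of the 5 other hashtags; a hashtag at 0 counts was set at 3 counts. Levels have exact Poisson intervals, nearest-pair ratios exact conditional binomial intervals and shares Clopper-Pearson intervals (scipy 1.17.1, Python 3.11.15). Hashtags are unlabelled samples and cells are not replicates, so no significance test was run. The calling script was checked on simulated counts with known fold changes. Genes named were a fixed set of 20, up to 4 called genes per list with the largest ratio, and up to 10 protein-coding genes per direction outside the lists with the widest gap at 50 CPM or more; this gave 50 genes. The 34 lists hold 419 genes. Members and lists were chosen with earlier results of these data known. Gene positions are from GENCODE 29 on GRCh38. Alternatives were other thresholds, scalings (edgeR 4.0.16 TMM in R 4.3.3) and hashtags left out. One gene named by this rule is not reported here.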

Additional observations from a re-analysis of the deposited data

Results flagged for a closer look

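Of 24 measures read over the 5 comparison hashtags, 2 had 1 hashtag far from the other 4, and chance flags about 1 in 20 such groups. Cardiomyocytes made up 71.9% of the tagged cells of Hashtag5, and 80.4% to 83.9% in the other 4. The median depth of Hashtag3 cardiomyocytes was 11342 UMIs, and 12774 to 13189 in the other 4.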

How the results depend on the processing

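The direction of 50 named ratios was recomputed under 25 settings: of 1250 values 58 changed sign, 54 of them for 10 genes that were not called (among them HEY2, GJA1, HAND1 and TNNI1, with ratios near 1) and 4 for called genes. Those 4 were TOP2A in cells with under 3 G2M UMIs (log2 ratio -0.10, and -0.12 in a second draw), ASPM in that second draw (-0.037), and COL3A1 at a hashtag share of 90% (0.28). The counts of genes depended more on the settings. Against 57 higher and 75 lower, a hashtag share of 90% gave 161 and 116, thinning to 3000 UMIs gave 182 and 125 (167 and 142 in a second draw, added after seeing the data), a minimum of 50 CPM gave 13 and 30, and no minimum gave 227 and 224. A contractile threshold of 10000 CPM gave 34 higher genes. Leaving out 1 hashtag gave 29 to 458 higher and 55 to 502 lower genes, the extremes being without Hashtag10 and without Hashtag4; without Hashtag3 there were 94 higher and without Hashtag6 116 lower genes. The difference in the share of PDGFD-positive cells between side medians widened to 8.17 percentage points at a hashtag share of 90%. In the main setting the share was 17.9% in Hashtag4 and 19.0% in Hashtag10, against a comparison median of 13.6%. A hashtag share of 90% left 286 Hashtag4 cells, 86 Hashtag10 cells and 82 to 300 cells per comparison hashtag before thinning. The minimum of 50 CPM and no minimum change how many genes are measured; for the other settings the cause was not tested. Of 34 called named genes, 6 were called under all 18 settings other than leaving out a hashtag: NPPA, NPPB, TNNI3, ADM, IER3 and PHLDA3. No paired analysis was possible because the 2 libraries are of 1 pool and no test was run.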
